A study of Mus musculus with 12 samples.

Results

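Edn1, the gene of the precursor of endothelin-1, and Ece1, the gene of endothelin-converting enzyme 1, were followed through 12 RNA sequencing libraries of mouse IEC4.1 cells. These were 2 of the 15002 genes in the deposited tables and were taken by gene symbol. Edn1 was picked on its own measured level, because it was lower after IFN-γ and after siRNA to the lncRNA Nostrill, so its differences are given below as a description with no test. Both genes passed the filter on low counts, as 2 of the 11900 genes that did.

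IEC4.1 is a cultured mouse intestinal epithelial line, and all 12 libraries came from it. Cells of the siR_Ctrl group received a scrambled control siRNA and no cytokine, and cells of the siR_Ctrl + IFN-γ group received that siRNA and then IFN-γ. Cells of the siR_Nostrill group received a pool of 3 siRNAs against Nostrill at 40 nM each, and cells of the siR_Nostrill + IFN-γ group received the pool and then IFN-γ. Each group held 3 libraries, described by the study as biological triplicates of this single line. The study describes 24 h of transfection followed by 1 ng/ml IFN-γ for 4 h, whereas the labels give 24 h for every library. The comparisons addressed what IFN-γ did to each gene under either siRNA, what the Nostrill siRNAs did with and without IFN-γ, and whether the effect of IFN-γ differed between the siRNAs.

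Endothelin-1 is a short peptide best known as a potent vasoconstrictor, released by endothelial cells and also by epithelial and mesenchymal cells. Its precursor is cut by furin-type proprotein convertases to big endothelin-1, which is nearly inactive, and the membrane metalloprotease ECE-1 then releases the active peptide. The peptide acts on a pair of G protein-coupled receptors, the products of Ednra and Ednrb. In the gut, endothelins constrict vessels and smooth muscle, and the related endothelin-3 and its receptor EDNRB are needed for the enteric nervous system to form. Edn1 is regulated largely at transcription, by AP-1 and GATA factors, hypoxia, TGF-β and SMADs, FOXO1 and shear stress. IFN-γ acts on genes with GAS elements and, through IRF factors, on genes with ISRE elements.

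Edn1 (gene ID 13614) lies on the plus strand at chr13:42301476-42307990 of GRCm38.p6 and has 1 RefSeq transcript. Its promoter is shown because the first comparison is with IFN-γ and because several regulators of the gene are described further on. The run covers chr13:42301226-42301525, from 250 bases before to 50 bases after the RefSeq start, with matches to the searched motifs in capitals.
Edn1 promoter: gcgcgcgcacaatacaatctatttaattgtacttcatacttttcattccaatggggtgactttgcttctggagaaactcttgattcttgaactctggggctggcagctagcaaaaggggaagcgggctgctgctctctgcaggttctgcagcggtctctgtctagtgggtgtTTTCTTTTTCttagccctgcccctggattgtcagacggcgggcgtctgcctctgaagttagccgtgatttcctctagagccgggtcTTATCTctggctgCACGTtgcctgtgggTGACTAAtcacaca
The capitals mark, from left to right, an ISRE core (GAAA, then 2 bases of any kind, then GAAA, on the minus strand) that starts 78 bases before the transcription start, a GATA match (AGATAA, minus strand), a hypoxia response element core (ACGTG, minus strand) and an AP-1-like match (TGACTAA, plus strand). The last 3 lie downstream of the RefSeq start, at positions 8, 21 and 36. All positions, that of the ISRE core included, are counted from this annotated start. Where transcription of Edn1 begins in these cells was not measured, so these matches may lie before or after the start in use. Sequence beyond this window was not searched. Both strands were searched, and no matches overlapped in this window. An ISRE core occurred in 3.43% of 32817 RefSeq promoters of this length, AGATAA in 11.2%, ACGTG in 19.6% and TGACTAA in 2.35%. The AP-1 consensus (TGANTCA, in 7.81% of promoters), the GAS element (TTCNNNGAA, 8.29%), TATAAA (13.6%) and the SMAD element CAGACA (21.0%) had no match in this window. A match describes the sequence and is not evidence of binding.

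Ece1 (gene ID 230857) lies on the plus strand at chr4:137862237-137965229 and has 4 RefSeq transcripts with 4 start sites. Promoter windows around the 2 upstream starts held none of these motifs. The window of the start at 137913558 held the palindrome CACGTG, which gives an ACGTG match on each strand, and the window of the start at 137920793 held an ISRE core, GAAATAGAAA, 72 bases before the start. The tables give 1 value per gene, so use of the 4 starts could not be followed.

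The Nostrill siRNAs are also shown, since short matches to their seeds in another transcript are a known side activity of siRNAs. Guide strands are given 5′ to 3′ with the seed (bases 2 to 8) in capitals.
Nostrill-1 guide: aUUAAUGCuucuucccagg
Nostrill-2 guide: aUUUGUGUguuccuggugg
Nostrill-3 guide: aUUAGAACgacuuauaggc
Sites complementary to these seeds were found in the 3′UTRs of 10.3%, 19.1% and 11.2% of 11588 tested genes, in that order. The 3′UTR of Edn1 (1111 bases in the GENCODE vM21 transcript) held no site for a guide seed. It held 1 site for the seed of the Nostrill-1 passenger strand, a match that 27.3% of genes have. The 3′UTR of Ece1 (2323 bases) held 1 guide-seed site, for Nostrill-2, and 3 sites for the Nostrill-1 passenger seed. The sites below are printed as DNA with the matched bases in capitals.
Edn1, Nostrill-1 passenger site: tatccgggTTCCCAGtcccctat
Ece1, Nostrill-2 guide site: gccctgccACACAAAgggggacc
No measurement here tests whether any of these sites was used.

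Total counts per library ran from 17824306 to 19093204. Known IFN-γ response genes served as a check of the treatment labels, and Irf1, Gbp2 and Socs1 rose with IFN-γ in both siRNA backgrounds, with log2 fold changes from 2.91 (Socs1, siR_Nostrill) to 6.63 (Gbp2, siR_Ctrl). Nostrill itself was not analysed here, because the tables list mRNAs, so the depth of its knockdown was not measured. Of the epithelial markers, Krt8 and Krt18 stayed at or below 0.41 and 0.14 TPM (a level scaled for transcript length and library total) and Krt19 lay between 1.41 and 3.75, while Epcam, Cdh1, Cldn3, Cldn4 and Cldn7 were not analysed here. All 9 smooth muscle and fibroblast markers were in the tables, with summed levels of 636 to 1414 TPM. Col1a1 (221 to 552), Col1a2 (162 to 355) and Acta2 (157 to 253) led this sum. Of the other smooth muscle markers, Tagln lay between 14.4 and 24.9 TPM. Des (1.13 to 1.88) and Myh11 (0.04 to 0.14) were low. Thus the epithelial markers measured were low beside the collagens and Acta2, but Krt19 lay above Myh11 and overlapped Des. The endothelial markers Pecam1, Cdh5 and Vwf, which mark the best known source of endothelin-1, summed to at most 0.29 TPM in every library.

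Edn1 was expressed at a low level that was highest in untreated control cells. In siR_Ctrl cells the 3 libraries held 121, 116 and 89 reads of Edn1, or 6.36, 6.49 and 4.85 CPM (counts scaled to a common TMM-adjusted library total). With IFN-γ, siR_Ctrl cells gave 61, 60 and 58 reads, or 3.30, 3.48 and 3.04 CPM. After the Nostrill siRNAs without IFN-γ the reads were 35, 55 and 38, or 1.99, 3.16 and 1.97 CPM. With both treatments they were 37, 48 and 42, or 1.98, 2.64 and 2.33 CPM. Every siR_Ctrl library stood above every library of the other 3 groups. The siR_Ctrl + IFN-γ libraries also stood above all siR_Nostrill + IFN-γ libraries, but replicate 2 of siR_Nostrill reached into their range, and the 2 siR_Nostrill groups overlapped. In TPM the siR_Ctrl libraries (3.76 to 6.19) again stood above all others, whereas siR_Ctrl + IFN-γ (2.07 to 2.56) overlapped siR_Nostrill + IFN-γ (1.65 to 2.13) and not siR_Nostrill (1.35 to 2.05). In FPKM it overlapped neither.

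Group means of Edn1 were 5.90 ± 0.910 CPM in siR_Ctrl, 3.27 ± 0.220 in siR_Ctrl + IFN-γ, 2.37 ± 0.682 in siR_Nostrill and 2.32 ± 0.327 in siR_Nostrill + IFN-γ (SD, n = 3 each). In this order the first step was larger than the spread of either group, whereas in CPM the siR_Ctrl + IFN-γ and siR_Nostrill groups overlapped, as did the last pair. Scaled for length, the means were 4.82 ± 1.24, 2.37 ± 0.263, 1.66 ± 0.356 and 1.84 ± 0.255 TPM, so that the order of the 2 siR_Nostrill groups depended on the scale. Among the tested genes, 23.4% had a lower mean TPM than Edn1 in siR_Ctrl cells and 13.5% in siR_Nostrill + IFN-γ cells. Depth limits these values, since the summed reads of a group were 326, 179, 128 and 127, with exact Poisson 95% intervals of 292 to 363, 154 to 207, 107 to 152 and 106 to 151 that cover counting error only. Bulk libraries of this kind cannot tell fewer Edn1-expressing cells from less Edn1 RNA per cell.

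**Figure D1:**
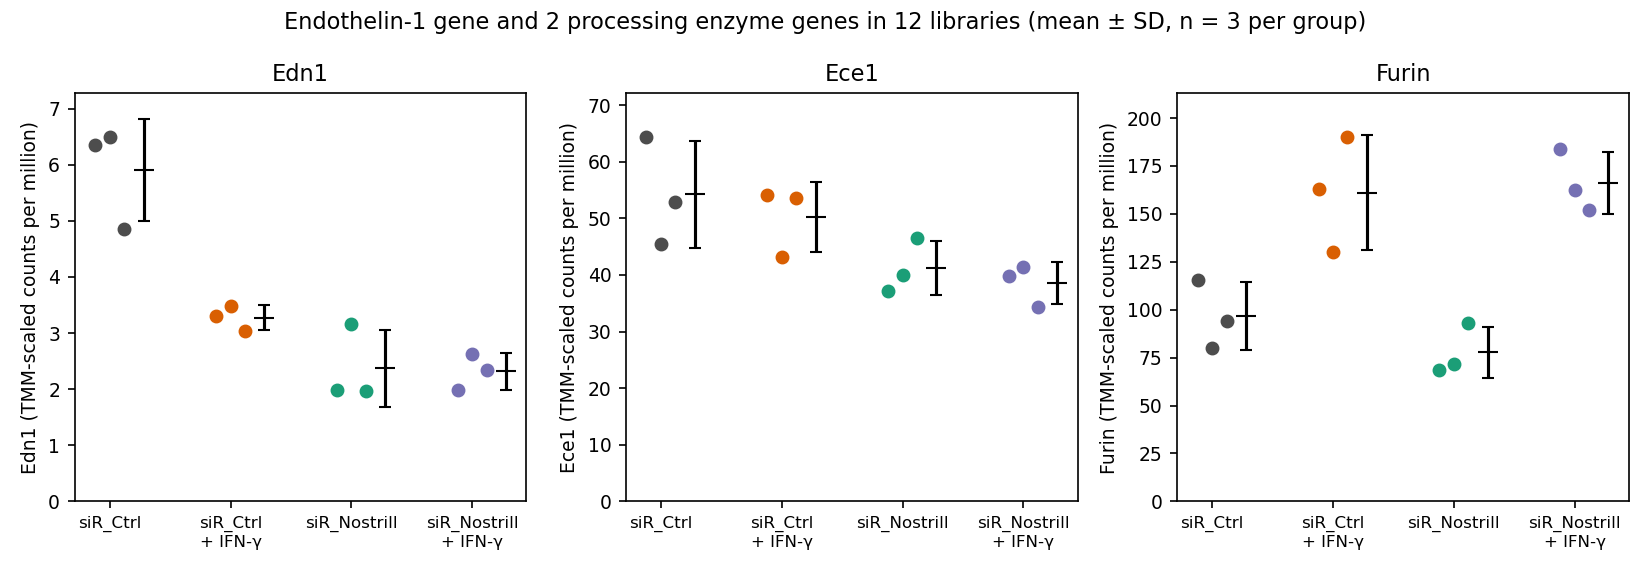
Level of Edn1, Ece1 and Furin in each library, in CPM on axes that start at 0, by group. Points are libraries and the bars beside them are the mean ± SD (n = 3). The siR_Ctrl libraries of Edn1 lie between 4.85 and 6.49 and all others at or below 3.48, while the Ece1 groups overlap except that siR_Nostrill + IFN-γ lies below both control siRNA groups.

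The Edn1 level of siR_Ctrl cells was 44.5% lower with IFN-γ than without it, a log2 fold change of -0.85 with a standard error (SE) of 0.19. By log2 fold change Edn1 ranked 61 from the lowest of the 11900 tested genes. In siR_Nostrill cells, IFN-γ left a log2 fold change of -0.03 (SE 0.22) for Edn1, near the middle of all genes at rank 5504. The Nostrill siRNAs alone gave a 59.8% lower level, a log2 fold change of -1.32 (SE 0.20) and rank 26. In the presence of IFN-γ the same siRNAs gave a 29.2% lower level, with a log2 fold change of -0.50 (SE 0.21) and rank 367. The difference between the effects of IFN-γ under the 2 siRNAs was 0.82 on the log2 scale (SE 0.29), which placed Edn1 at rank 225 from the highest. Edn1 was lower after either treatment, and in CPM the level with both lay within the range of the Nostrill siRNAs alone. In TPM replicate 2 of siR_Nostrill + IFN-γ (2.13) stood above that range (1.35 to 2.05). IFN-γ in siR_Ctrl cells and the Nostrill siRNAs alone were both compared with the same siR_Ctrl libraries, so a high value there enters both.

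Replicate 2 of siR_Nostrill was the highest of its group, and 3 of these values moved most when it was left out. Without it the log2 fold change of Edn1 for IFN-γ in siR_Nostrill cells became 0.22, that for the Nostrill siRNAs alone -1.56 and the difference between the IFN-γ effects 1.06. Over all 12 omissions of a library, the IFN-γ value in siR_Ctrl cells stayed between -0.97 and -0.77 and that of the Nostrill siRNAs alone between -1.56 and -1.20. Libraries differed in how the signal varied with gene length, and this trend ranged from -0.146 to 0.125 (log2) for genes as long as Edn1 (effective length 1906 bases). With the trend removed, the log2 fold changes were -0.89 for IFN-γ in siR_Ctrl cells and -1.41 for the Nostrill siRNAs alone. Smooth muscle and fibroblast markers summed to 861 to 1414 TPM in siR_Ctrl and to 636 to 1124, 721 to 1070 and 801 to 990 TPM in the other groups, in the order above. With IFN-γ in siR_Ctrl cells 7 of the 8 tested markers had log2 fold changes below 0 (median -0.26, beside -0.01 over all genes) and 3 had an unadjusted p below 0.05, a share that was 14.6% over all genes. For the Nostrill siRNAs without IFN-γ 7 of 8 were below 0 (median -0.12, beside 0.01 over all genes) and 1 had an unadjusted p below 0.05, beside 13.8% of all genes. The marker in this last count was Des, which was higher (log2 fold change 0.54), so none of the 7 lower markers was in it. In edgeR 0 of 8 markers passed the adjusted threshold in any comparison, and the part of these markers in the Edn1 difference was not tested.

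**Figure D2:**
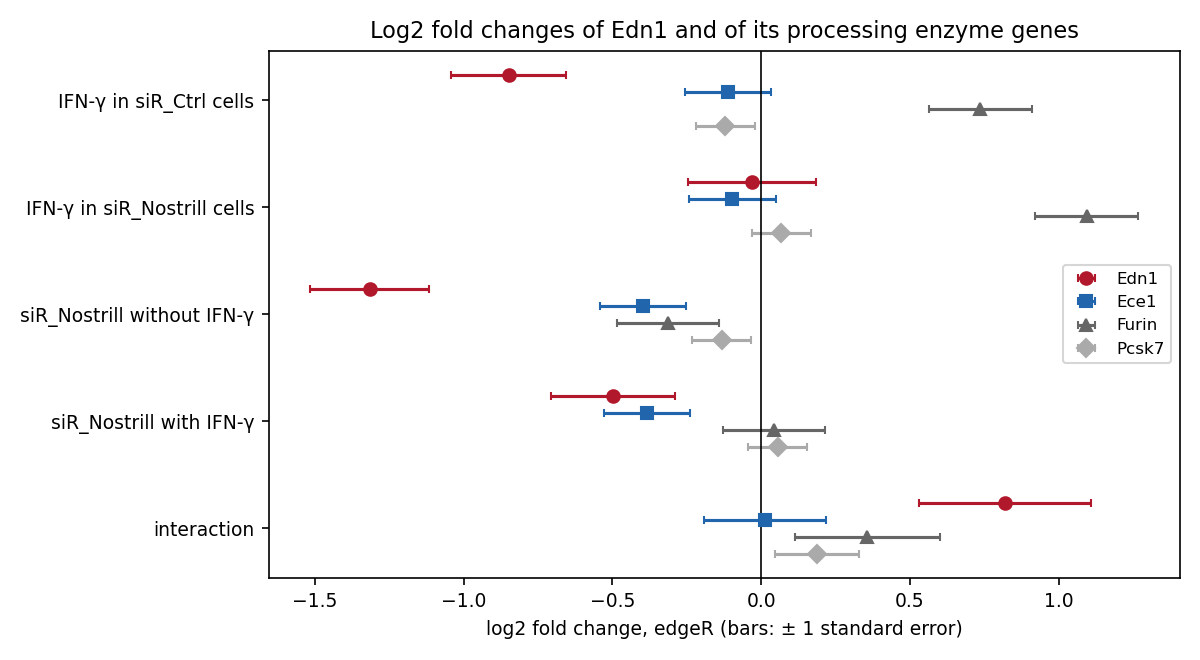
Log2 fold changes of Edn1, Ece1, Furin and Pcsk7 in the 4 comparisons and the interaction (the difference between the IFN-γ effects), with bars of ± 1 SE from edgeR. Edn1 lies furthest to the left for the Nostrill siRNAs without IFN-γ (-1.32) and at -0.03 for IFN-γ in siR_Nostrill cells, where Furin lies at 1.09.

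Ece1 was more abundant than Edn1. Its level was 64.3, 45.5 and 52.9 CPM in the siR_Ctrl libraries (1224, 814 and 970 reads) and 54.0, 43.1 and 53.6 CPM in siR_Ctrl + IFN-γ. After the Nostrill siRNAs it was 37.1, 39.99 and 46.5 CPM without IFN-γ and 39.8, 41.5 and 34.3 CPM with it. Most groups overlapped, but the siR_Nostrill + IFN-γ libraries lay below every library of both control siRNA groups in CPM. In TPM they reached 14.3 and overlapped both, since replicate 2 was at 13.5 TPM in siR_Ctrl and at 10.9 TPM in siR_Ctrl + IFN-γ. In FPKM they reached 9.47, below all siR_Ctrl libraries (9.94 or more) but above replicate 2 of siR_Ctrl + IFN-γ (8.70). Group means were 54.2 ± 9.47, 50.2 ± 6.17, 41.2 ± 4.79 and 38.5 ± 3.72 CPM (SD, n = 3 each), and each pair of neighbours in this order overlapped. In TPM, Ece1 exceeded Edn1 in 12 of 12 libraries, by 3.0 to 10.04 times with a median of 6.52. This ratio was lowest in siR_Ctrl cells, at 4.29, 3.0 and 4.65, and lay between 5.29 and 10.04 in the other libraries. It carries the selection of Edn1 and is a description.

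Ece1 did not pass the threshold in any comparison. In edgeR, with Benjamini-Hochberg adjustment over the 11900 genes, IFN-γ gave Ece1 a log2 fold change of -0.11 in siR_Ctrl cells (95% interval -0.43 to 0.21, adjusted p = 0.778) and of -0.10 in siR_Nostrill cells (-0.42 to 0.22, adjusted p = 0.694). In edgeR the Nostrill siRNAs gave Ece1 a log2 fold change of -0.40 without IFN-γ (95% interval -0.72 to -0.08, adjusted p = 0.302) and -0.38 with it (-0.70 to -0.06, adjusted p = 0.246). These last intervals lie below 0, but the values did not pass the adjustment over all genes. For the difference between the IFN-γ effects Ece1 had 0.01 (95% interval -0.44 to 0.46, adjusted p = 0.970). As background, edgeR called 4.71% of genes higher and 0.748% lower with IFN-γ in siR_Ctrl cells, and 5.24% higher and 1.55% lower with IFN-γ in siR_Nostrill cells. For the Nostrill siRNAs it called 0.0756% higher and 0.143% lower without IFN-γ, and 0.185% higher and 0.244% lower with it. For the interaction it called 0 of 11900 genes (0.0%), with 1277 below an unadjusted p of 0.05, and DESeq2 also called 0, with 1485.

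The call for Ece1 depended on the length trend between libraries. At the length of Ece1 (effective length 4466 bases) the trend ranged from -0.19 to 0.30 (log2) and was highest in replicate 1 of siR_Ctrl, the library with most Ece1. With the trend removed, the log2 fold change of Ece1 for the Nostrill siRNAs with IFN-γ was -0.44 and passed in edgeR (adjusted p = 0.00265), and that for IFN-γ in siR_Nostrill cells was -0.23 and passed (adjusted p = 0.0419). That setting called 1537 and 2255 genes in these 2 comparisons, against 51 and 807 without it. For the Nostrill siRNAs without IFN-γ it gave -0.225 (adjusted p = 0.0985). DESeq2 on the 12 libraries did not call Ece1 for the Nostrill siRNAs either, with adjusted p = 0.181 without IFN-γ and 0.164 with it. Whether the trend or the siRNAs carry the difference was not tested.

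**Figure D3:**
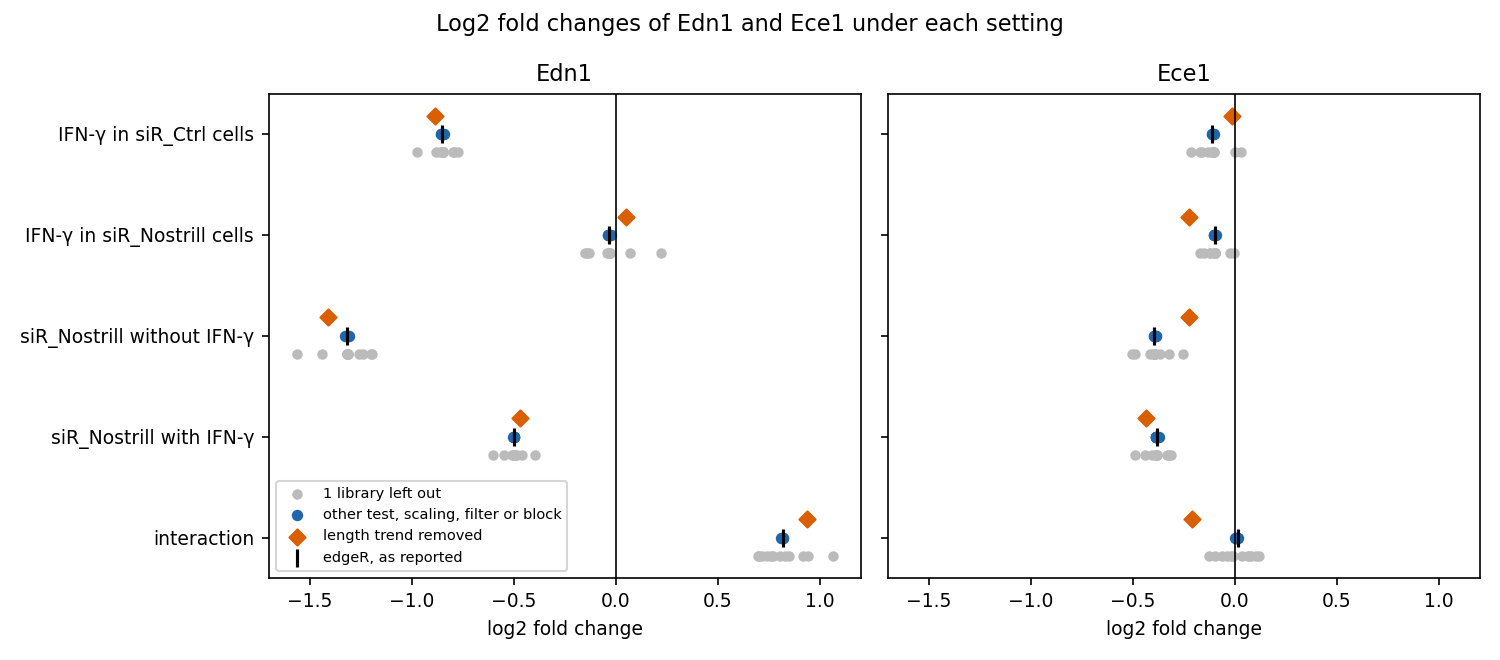
Log2 fold changes of Edn1 (left) and Ece1 (right) in each comparison under every setting tried. Black ticks are the reported edgeR values, grey points leave out 1 library each, blue points change the test, scaling, filter, libraries or block, and orange diamonds remove the length trend. For Edn1 the values for IFN-γ in siR_Ctrl cells stay between -0.97 and -0.77, and for Ece1 removing the trend moves the Nostrill siRNA value without IFN-γ from -0.40 to -0.225.

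The other genes of the axis were then placed around these members. Of 16 genes for endothelin ligands, processing and degrading enzymes and receptors, 9 were in the tables and 7 (Edn3, Ednrb, Mme, Pcsk5, Pcsk6, Kel and Cma1) were not analysed here. Among ligands, Edn2 had 0 to 3 reads per library, so that of the ligands in the tables only Edn1 passed the filter. The converting enzyme Ece2 had 0 to 11 reads (at most 0.33 TPM) and its relative Ecel1 0 to 2, which left Ece1 as the one converting enzyme to pass the filter. Of the receptors, Ednra had 1 read in 1 of the 12 libraries. Mmel1, a neprilysin-like peptidase, had 0 to 4 reads. These 5 genes were below the filter and were not tested.

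Of the convertases that act before Ece1, Furin rose with IFN-γ and Pcsk7 was not called. Furin, which cuts many precursors including that of endothelin-1, was at 116, 80.3 and 94.0 CPM in siR_Ctrl and 163, 130 and 190.0 CPM in siR_Ctrl + IFN-γ. In siR_Nostrill cells it was at 68.3, 71.9 and 92.9 CPM without IFN-γ and 184, 162 and 152 CPM with it. In CPM the groups with IFN-γ lay above those without it in either siRNA background, a separation whose share among all genes was not counted. In siR_Ctrl cells they overlapped on the other scales, since replicate 1 without IFN-γ was at 52.3 TPM and 29.9 FPKM and replicate 2 with it at 36.8 TPM and 29.2 FPKM. Furin rose with IFN-γ by 0.74 on the log2 scale in siR_Ctrl cells (SE 0.17, edgeR adjusted p = 0.0282) and by 1.09 in siR_Nostrill cells (SE 0.17, adjusted p = 0.00209), and these effects did not differ by test (0.36, adjusted p = 0.445). The call in siR_Nostrill cells held in 19 of 19 alternatives. That in siR_Ctrl cells held in 13 of 19 and was lost without siR_Ctrl replicate 2 (adjusted p = 0.112) or 3 (0.104), without siR_Ctrl + IFN-γ replicate 1 (0.0881) or 3 (0.107), without siR_Nostrill + IFN-γ replicate 2 (0.0507) and in a fit of only the groups compared (0.143), while its log2 fold change stayed between 0.60 and 0.89 over the 19 alternatives. Pcsk7, another convertase, had log2 fold changes of -0.12, 0.07, -0.13 and 0.06 in the 4 comparisons and was not called. Thus, of the 3 tested axis genes other than Edn1, 1 rose with IFN-γ in each background, beside 4.71% and 5.24% of all genes called higher, and 0 passed for the Nostrill siRNAs, beside 0.0756% to 0.244% of all genes called in either direction. Furin had log2 fold changes of -0.31 (edgeR adjusted p = 0.390) for the siRNAs without IFN-γ and 0.04 (0.933) with it.

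Downstream of the receptors, 18 of 19 listed signalling genes (G protein subunits, phospholipase C-β isoforms, protein kinase C isoforms, IP3 receptors, arrestins and Grk2) were tested. Gna13, the G protein α subunit that links receptors to RhoA, rose with IFN-γ. It was at 121, 88.5 and 93.3 CPM in siR_Ctrl and 189, 160 and 217 CPM in siR_Ctrl + IFN-γ, and at 91.9, 81.1 and 98.1 CPM in siR_Nostrill and 226, 209 and 194 CPM in siR_Nostrill + IFN-γ, with no overlap in CPM between cells with and without IFN-γ. In TPM replicate 1 of siR_Ctrl (48.95) stood above replicate 2 of siR_Ctrl + IFN-γ (46.8). The share of all genes without overlap in CPM was not counted. The log2 fold changes of Gna13 were 0.90 (SE 0.14, edgeR adjusted p = 0.00186) and 1.21 (SE 0.14, adjusted p = 0.000184), and both calls held in 19 of 19 alternatives. No other listed gene passed in either IFN-γ comparison, so that 1 of 18 stands beside the 4.71% and 5.24% of all genes called higher. For the Nostrill siRNAs 0 of 18 passed in edgeR, where few genes passed at all (26 and 51 of 11900 without and with IFN-γ). In each of those comparisons 2 of 18 were below an unadjusted p of 0.05, beside 13.8% and 14.5% of all genes. Median log2 fold changes of the list were -0.05 and 0.10 for IFN-γ in siR_Ctrl and siR_Nostrill cells and -0.18 and 0.01 for the Nostrill siRNAs without and with IFN-γ, beside medians between -0.01 and 0.01 over all genes.

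All 26 listed regulators of Edn1 transcription were tested. With IFN-γ in siR_Ctrl cells, where Edn1 was lower, 3 rose and 0 fell. These were Jun and Junb, which encode AP-1 subunits, and Klf2, a factor known from flow-exposed endothelium. Jun went from 130, 119 and 126 CPM to 177, 187 and 191 CPM, a log2 fold change of 0.57 (edgeR adjusted p = 0.000593). Junb rose by 0.62 (adjusted p = 0.00222) and Klf2, from a mean of 1.86 to 3.28 CPM, by 0.81 (adjusted p = 0.0132). Their groups with and without IFN-γ did not overlap in CPM, but Jun overlapped in TPM (53.5 to 81.3 and 71.9 to 104). How many of all genes separate in this way was not counted. In siR_Nostrill cells the same 3 genes had log2 fold changes of 0.28 (adjusted p = 0.0543), 0.29 (0.111) and 0.10 (0.745) with IFN-γ, but the difference between backgrounds did not pass for any of them (adjusted p = 0.430 each).

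In siR_Nostrill cells 4 of the 26 regulators rose with IFN-γ and 0 fell. They were Fosl2, an AP-1 subunit (0.80, edgeR adjusted p = 0.0122), Hif1a, the oxygen-regulated subunit of HIF-1 (0.87, 0.0225), Foxo1 (0.82, 0.0184) and Nfkb1, which encodes the p105 precursor of an NF-κB subunit (0.57, 0.0493). The corresponding values in siR_Ctrl cells were 0.41, 0.32, 0.46 and 0.31 and did not pass, and the differences between backgrounds did not pass either (adjusted p from 0.430 to 0.504). For the Nostrill siRNAs, 0 of 26 regulators passed in edgeR without IFN-γ and 0 with it, as against 26 and 51 of all 11900 genes. Below an unadjusted p of 0.05 were 6 of 26 in each, beside 13.8% and 14.5% of all genes. Jun came closest with IFN-γ, at -0.36 (adjusted p = 0.0651). Hif1a and Fosl2 were at -0.47 (adjusted p = 0.351) and -0.52 (0.246) without IFN-γ. Over the list, the median log2 fold change was 0.10 and 0.22 for IFN-γ in siR_Ctrl and siR_Nostrill cells and -0.14 and 0.03 for the Nostrill siRNAs. The 3 of 26 and 4 of 26 calls stand beside the 4.71% and 5.24% of all genes called higher, and the list was chosen with results of these libraries known.

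For several of these genes the adjusted p crossed 0.05 when a library was left out, while the log2 fold change stayed between 0.74 and 0.91 for Klf2, 0.75 and 0.85 for Fosl2, 0.81 and 0.97 for Hif1a, 0.72 and 0.89 for Foxo1 and 0.48 and 0.67 for Nfkb1. Jun held in 19 of 19 alternatives and Junb in 18, the exception being the fit of only the groups compared (adjusted p = 0.0525). Klf2 held in 14 of 18 and was lost in that fit (0.0634) and without siR_Ctrl replicate 2 (0.0611) or 3 (0.0600) or siR_Ctrl + IFN-γ replicate 2 (0.0534). Fosl2 was lost without siR_Nostrill replicate 1 (0.0579) or 2 (0.0634) or siR_Nostrill + IFN-γ replicate 1 (0.0547). Without those same libraries Hif1a had adjusted p = 0.0907, 0.117 and 0.0795, and Foxo1 0.0618, 0.108 and 0.0776. Both were also lost without siR_Nostrill + IFN-γ replicate 2 (0.0833 and 0.0651), and Hif1a without replicate 3 of that group (0.0506). Nfkb1 held in 8 of 19 alternatives and was lost without any library of the siR_Nostrill or siR_Nostrill + IFN-γ groups (adjusted p from 0.0518 to 0.223), with siR_Ctrl replicate 3 (0.0755) or siR_Ctrl + IFN-γ replicate 1 (0.0763) left out and with other size factors or filters.

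**Figure D4:**
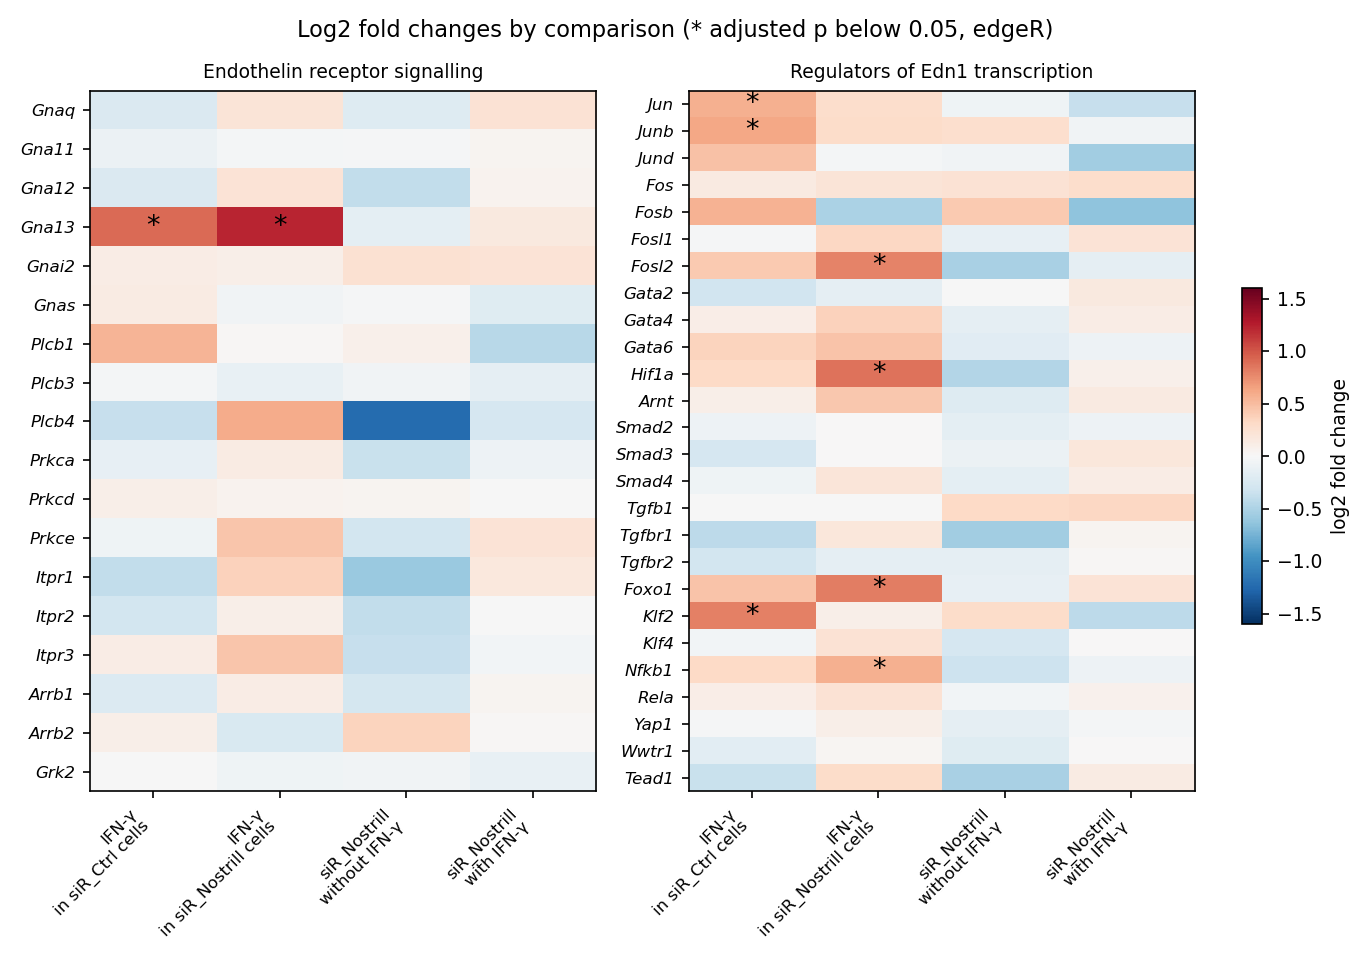
Log2 fold changes of 18 genes of endothelin receptor signalling (left) and 26 regulators of Edn1 transcription (right), with 1 column for each of the 4 comparisons, red for higher and blue for lower. Stars mark adjusted p below 0.05 in edgeR. Stars occur only in the IFN-γ columns, for Gna13 in both and for 3 and 4 regulators.

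Genes whose level followed the 2 members most closely were found among 11203 genes averaging 1 CPM or more, by Pearson correlation of log2 CPM over the 12 libraries. Correlations are given as a description, since the points share 4 groups and the libraries' length trends. The 8 genes most like Edn1 were Gtf2h1 (r = 0.925), Hsp90aa1 (0.922), Dld (0.906), Ndufs1 (0.902), Sephs1 (0.886), Cavin2 (0.886), Selenot (0.885) and Khdrbs1 (0.882). Hsp90aa1, the inducible cytosolic HSP90 chaperone, had mean levels of 767, 618, 573 and 596 TPM in the order of groups above, and Cavin2, a coat protein of caveolae, 56.9, 42.1, 33.3 and 39.3 TPM. Each of the 8 was highest in siR_Ctrl cells. With the length trend removed, 5 of the 8 stayed among the 8 most like, while the r of Sephs1 was 0.205. On log2(FPKM + 1) the number was 5 as well.

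Ece1 itself had rank 369 for Edn1, with r = 0.649. Among the genes most like Ece1 were Eif3a (r = 0.968), a subunit of translation initiation factor eIF3, Lzts3 (0.962), Dcun1d4 (0.959) and Myo1c (0.957), an unconventional myosin. Their effective lengths were 3904 to 5060 bases, beside 4466 for Ece1. With the length trend removed, Eif3a and Lzts3 stayed among the 5 most like Ece1.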

How the data were processed

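RNA sequencing reads of 12 IEC4.1 libraries had been aligned by the authors with both HISAT2 and Bowtie2, on GRCm38.p6. Which program made the gene counts was not given in the sources used here. Deposited tables give for each gene an estimated count (90.6% to 91.6% whole per library), a TPM and an FPKM value, and FPKM is scaled by the authors for length and mapped reads. Here counts were rounded and tested in R 4.3.3 with edgeR 4.0.16 (quasi-likelihood test, TMM, filterByExpr, all 12 libraries in 1 fit, Benjamini-Hochberg adjustment, threshold 0.05). TPM served for levels between genes, TPM and FPKM for checks of how groups of libraries overlap, and FPKM for a check of likeness. The share of all genes whose groups did not overlap was not counted, so overlap is given as a description. CPM denotes counts scaled to the TMM-adjusted library total, with a prior count of 2 on the log2 scale. Alternatives were DESeq2 1.42.0, its size factors, other filters, fits of the compared groups alone, a replicate block, removal of a length trend (lowess, span 0.3, per library) and each library left out. The script was tested on simulated data. Named genes were both members, all axis genes in the tables, list genes called in any comparison, and the 8 and 5 genes most like Edn1 and Ece1, apart from items not reported here. Members and lists were chosen with earlier results of these data known, and Edn1 was chosen for its change. Groups came from the labels, and p-values measure the spread between these samples. Promoters came from RefSeq (GRCm38.p6), 3′UTRs from GENCODE vM21 and siRNAs from the study.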

Additional observations from a re-analysis of the deposited data

How the results depend on the processing

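Edn1 kept the sign of its log2 fold change under every alternative tried for IFN-γ in siR_Ctrl cells, for the Nostrill siRNAs with and without IFN-γ and for the interaction. Leaving out 1 library gave ranges of -0.97 to -0.77, -0.60 to -0.40, -1.56 to -1.20 and 0.70 to 1.06, in that order, and of -0.15 to 0.22 for IFN-γ in siR_Nostrill cells. Edn1 had no value under a filter of at least 5 CPM on the mean, which it does not reach. Ece1 was not called under any alternative but removal of the length trend, which gave -0.23 for IFN-γ in siR_Nostrill cells, -0.44 for the Nostrill siRNAs with IFN-γ and -0.21 for the interaction, the last reversed in sign. Leaving out 1 library gave Ece1 ranges of -0.22 to 0.0304 (IFN-γ in siR_Ctrl cells), -0.17 to -0.0021 (IFN-γ in siR_Nostrill cells), -0.50 to -0.26 and -0.49 to -0.31 (Nostrill siRNAs without and with IFN-γ) and -0.13 to 0.12 (interaction). The cause of these shifts was not tested.

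Counts of called genes were 649, 807, 26, 51 and 0 for IFN-γ in siR_Ctrl cells, IFN-γ in siR_Nostrill cells, the Nostrill siRNAs without and with IFN-γ and the interaction. DESeq2 gave 838, 1330, 265, 596 and 0, a fit of only the groups compared gave 341, 1997, 0 and 0, and removal of the length trend gave 1324, 2255, 408, 1537 and 0. For the Nostrill siRNAs with IFN-γ, no filter gave 30 and a mean of at least 5 CPM gave 105. Leaving out 1 library gave 489 to 589, 491 to 1138, 0 to 37, 0 to 72 and 0 for the interaction in each case. For the 18 same-numbered pairs, r of the deviations from group means lay between -0.495 and 0.725, and for the others between -0.812 and 0.769. Not every sample correlated best with its own number. The deviations also carry the length trends of the libraries, so whether same-numbered libraries were prepared together could not be told. With the replicate number as a block the counts were 644, 943, 18, 32 and 0. No call reported above for an axis, signalling or regulator gene was lost, and Ece1 stayed uncalled. Whether other named genes gained a call was not examined. The 5 genes most like Edn1 and 2 most like Ece1 that stayed without the length trend are given above. Edn1 had 35 to 121 reads per library, which limits its precision more than that of Ece1.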
